A study of Mus musculus with 2 samples.

Results

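Single-exon antisense loci are places in the genome where long reads formed an unspliced transcript model on the strand opposite to an annotated gene. They were taken as all transcript models that the deposited tables place in the class Antisense and that hold 1 exon. Replicate 1 held 5267 such models of 56790 models in all, and replicate 2 held 6049 of 69026. In each library 3 of them lay on ERCC spike-in RNAs, synthetic controls added to the sample, which left 5264 mouse models in replicate 1 and 6046 in replicate 2. Models of both libraries that overlapped on the same strand were joined, which gave 9258 mouse loci.

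The libraries came from the hearts of B6CASTF1/J males, 2 months old, first-generation hybrids of a C57BL strain and the wild-derived CAST strain. They form 1 group of 2 libraries, named replicate 1 and replicate 2, each made from 2 µg of RNA, with no treatment and no second tissue. The labels give each library its own biosample, described with its own animal number. They also give both 1 shared donor entry and, in another text field, the same animal number. Whether these are separate mice is thus unsettled, and the spread between the libraries may be partly technical. The tables held 454069 reads in replicate 1 and 661958 in replicate 2.

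Antisense RNAs are made from the strand opposite to a gene. Some act on that gene, by pairing with its RNA, by interfering with its transcription or by changing its chromatin, and many have no known role. A known example in the mouse heart is Mhrt, transcribed against the myosin heavy chain gene Myh7. An mRNA normally ends a short way after a poly(A) signal, written AATAAA or ATTAAA in DNA, and its poly(A) tail is added after transcription and is not in the genome.

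The sequence around the 3′ end is shown first for some of the most read loci and for 1 locus read in replicate 1 alone, opposite Satb1, to show ends with and without a following stretch of A. Each run gives the last 10 bases of the model and the 20 genomic bases that follow it, 5′ to 3′ on the strand of the locus, with every stretch of at least 6 A in capitals. The bases were read from GENCODE M21 transcripts of the opposite gene (mm10) and reverse-complemented. The first set holds ends followed by many A, opposite Klhl31 (replicate 1, chr9:77656652-77656681, minus strand), 2900097C17Rik (both libraries, chr2:156391505-156391534, plus strand), Msrb3 (replicate 2, chr10:120783305-120783334, plus strand) and Satb1 (replicate 1, chr17:51812307-51812336, plus strand).
Klhl31: tccagAAAAAAggAAAAAAAAAAAAAAAAA
2900097C17Rik: cacaaaatgtAAAAAAAAAAAAAAAAAAAA
Msrb3: aactttggacAAAAAAAAAAAAAAAAtgga
Satb1: tggggagaggaattAAAAAAAAAAAAAggt
The 20 bases after these ends held 18, 20, 17 and 15 A. The second set holds ends at which the following bases were not A-rich, opposite Tmem250-ps (both libraries, chr2:26138374-26138403, plus strand) and Msrb3 (replicate 1, chr10:120783283-120783312, plus strand).
Tmem250-ps: ggtgggccctcacatgtccacaaagaccat
Msrb3: tgggcaagcattcttctttgtgaactttgg
The 20 bases after these ends held 8 and 2 A. The end opposite Tmem250-ps lay within 1 base of an annotated exon boundary, and the other ends of both sets did not. Opposite Nfia in replicate 2, not shown here, an end away from such boundaries was followed by 4 A among 20 bases.

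As a whole the loci were a small part of the heart transcriptome, spread thinly over many places. They took 11705 reads in replicate 1, which was 2.61% of mouse reads (exact Clopper-Pearson 95% interval 2.57 to 2.66), and 15413 reads in replicate 2, which was 2.36% (2.32 to 2.39). The mean was 2.49% ± 0.183 (SD, n = 2). A single read supported 75.1% of the models in replicate 1 and 73.7% in replicate 2, and the median was 1 read in both. Only 105 models in replicate 1 and 162 in replicate 2 had 10 or more reads, and these held 35.2% and 43.4% of the antisense reads. The locus opposite Gm26917 alone took 7.77% of all antisense reads, and the 100 most read loci took 37.2%.

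The spike-in RNAs are added as single strands, so their reads in antisense models were counted too. Of the spike-in reads 39 of 6419 in replicate 1 (0.608%, 0.432 to 0.830) and 68 of 7828 in replicate 2 (0.869%, 0.675 to 1.10) fell in antisense models. Nearly all of these came from ERCC-00009, with 29 reads in replicate 1 and 48 in replicate 2, and ERCC-00116, with 9 and 19. No control with an antisense read had a sense read in either library. As all antisense spike-in reads fell on controls with no sense read, these shares are not taken as a background rate for the mouse loci. The 4 most read controls had 0 antisense reads of 5247 in replicate 1 and 0 of 6434 in replicate 2, which allows a share of up to 0.0572% and 0.0466%. The rule that gave each read its strand is not given in the sources used here. A locus and wrongly placed reads of its opposite gene cannot be told apart at a single site.

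The samples carried the markers of heart muscle. All 8 cardiomyocyte markers were read and summed to 51100 CPM in replicate 1 and 43690 in replicate 2, CPM being reads scaled to the total of annotated nuclear genes. Fibroblast markers summed to 1111 and 903 CPM, endothelial markers to 569 and 527 CPM, and macrophage markers to 181 and 156 CPM. The 3 erythroid markers stood apart between the libraries, at 11259 CPM in replicate 1 and 2981 CPM in replicate 2. Of 4 markers of other organs only Lck was read, with 2 reads in replicate 1.

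The models were as long as many mRNAs. Their median length was 1154 bases in replicate 1 and 1073 bases in replicate 2, and the middle 50% ran between 370 and 2546 bases in replicate 1 and between 368 and 2290 bases in replicate 2. Spliced antisense models were far fewer, with 282 models and 389 reads in replicate 1 and 349 models and 494 reads in replicate 2. Single-exon models in the spaces between genes numbered 1152 in replicate 1 and 1334 in replicate 2, with a median length of 240 and 299 bases. A length here belongs to the model and not to its reads: 80 antisense models in replicate 1 and 105 in replicate 2 were listed as 1 base long, with 205 and 292 reads.

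Loci that were read often were found again in the other library, and those with 1 read mostly were not. Of the replicate 1 models 36.2% (34.9 to 37.5) overlapped an antisense model of replicate 2 on the same strand, and of the replicate 2 models 31.9% (30.7 to 33.1) overlapped one of replicate 1. These matched models held 65.9% of the antisense reads in replicate 1 and 67.6% in replicate 2. Among models with 1 read, 25.3% of those in replicate 1 and 20.6% of those in replicate 2 had a match. Among models with 10 or more reads the shares were 95.2% (89.2 to 98.4) and 97.5% (93.8 to 99.3). Single-exon intergenic models were matched less often in all, 26.6% (24.0 to 29.2) in replicate 1 and 22.9% (20.7 to 25.3) in replicate 2. They were also shorter, with median lengths of 240 and 299 bases against 1154 and 1073 for the antisense models. The part of length in the matching was not tested.

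Where both libraries read a locus, they placed its 3′ end at nearly the same base and its 5′ end at widely different bases. This was measured in 1744 pairs in which each model overlapped exactly 1 antisense model of the other library. The 3′ ends were identical in 64.4% of pairs and within 10 bases in 80.2%, with a median difference of 0 bases. The 5′ ends were identical in 26.9% and within 10 bases in 41.2%, with a median difference of 173.5 bases. How the ends of a model were set from its reads is not given in the sources used here. Among the 998 pairs with no end within 1 base of an annotated exon boundary, the 3′ ends were identical in 61.5% and the 5′ ends in 18.0%. The intergenic models were unlike this at their 5′ ends, which were within 10 bases in 64.0% of 300 pairs, with a median difference of 1 base. These models were also shorter, and the part of length was not tested.

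**Figure D1:**
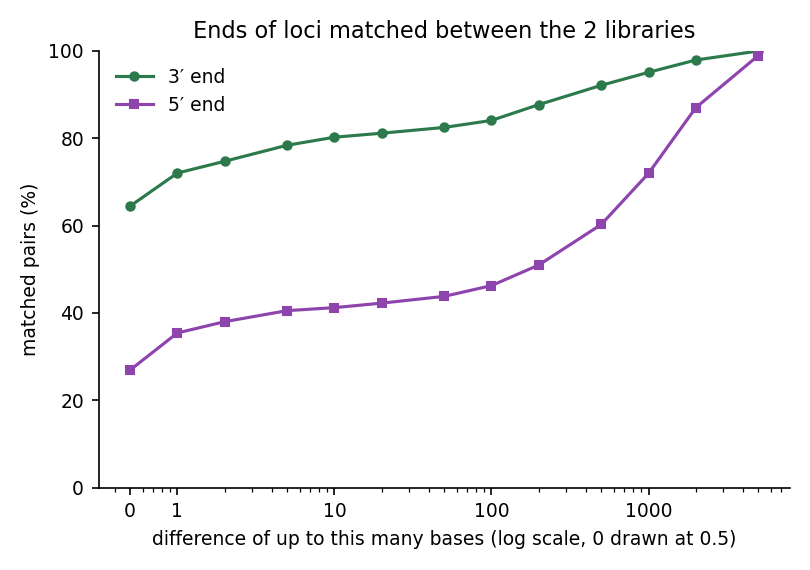
Percent of the 1744 matched pairs (y axis) whose 3′ ends (green circles) or 5′ ends (purple squares) differ between the libraries by no more than the number of bases on the log-scaled x axis. The 3′ end curve starts at 64.4% at 0 bases and the 5′ end curve at 26.9%, reaching 46.3% at 100 bases.

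Nearly all loci lay within the body of the opposite gene, and that gene was nearly always protein-coding. In replicate 1 96.1% of models lay wholly inside the opposite gene and 94.5% lay opposite a protein-coding gene, and in replicate 2 the shares were 95.5% and 94.9%. Models that ran over the 5′ end of the opposite gene, the arrangement of divergent transcripts, made up 2.18% in replicate 1 and 2.61% in replicate 2. Those that ran over its 3′ end made up 1.12% and 1.17%. On the mitochondrial chromosome there were 12 models with 42 reads in replicate 1 and 13 models with 75 reads in replicate 2.

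The models were evenly divided between those that touched an exon of a gene on the opposite strand and those that touched none, but the reads were not. An exon was overlapped by at least 1 base in 49.98% of models in replicate 1 (48.6 to 51.3) and 50.2% in replicate 2 (49.0 to 51.5). These models held 69.5% of antisense reads in replicate 1 and 70.6% in replicate 2. Models that lay mostly in a 3′ UTR were 15.6% of models but held 30.8% of reads in replicate 1, and 17.1% of models with 37.2% of reads in replicate 2. They averaged 4.40 and 5.55 reads per model, against 1.35 and 1.504 for models that touched no exon. They were also found again more often: 63.0% of the 3′ UTR models in replicate 1 and 52.4% in replicate 2 had a match, against 29.2% and 26.6% of the models with no exon.

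Set against the length of each part of a gene, 3′ UTRs carried the most 3′ ends of antisense models. Over 7830 protein-coding genes with at least 10 summed sense reads, their 3′ UTRs held 37.9 model ends per Mb in replicate 1 and 48.5 per Mb in replicate 2. Their introns held 7.02 and 7.90 ends per Mb. Coding sequence and 5′ UTRs lay between, at 23.4 and 31.0 ends per Mb in replicate 1 and 25.9 and 33.1 in replicate 2. In reads the gap was wider, with 180 and 302 antisense reads per Mb of 3′ UTR against 10.2 and 12.5 per Mb of intron.

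**Figure D2:**
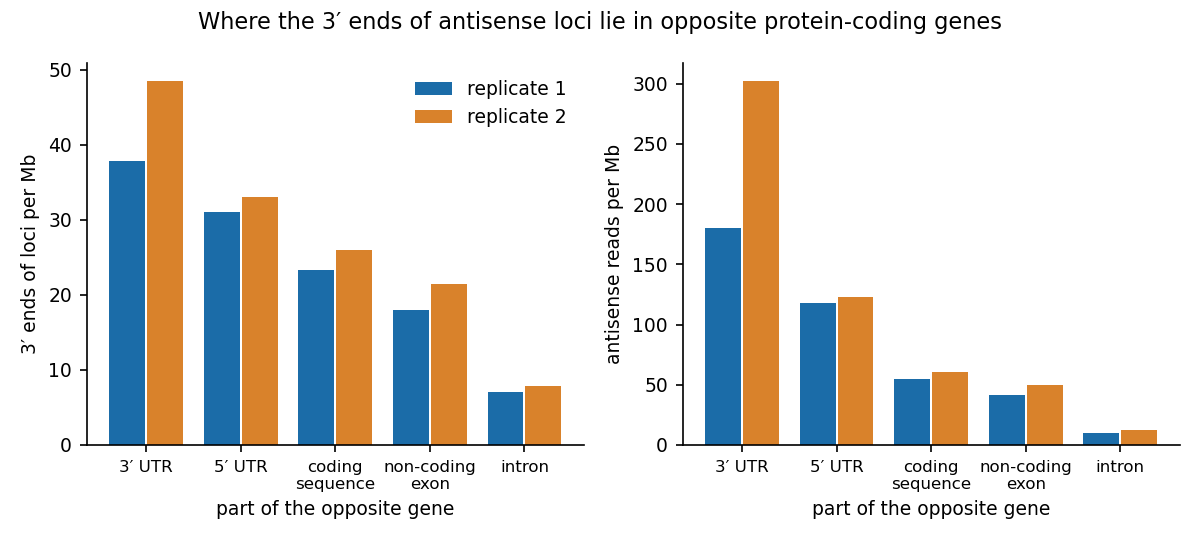
3′ ends of antisense models (left) and antisense reads (right) per Mb of each part of 7830 protein-coding genes with at least 10 summed sense reads, with 1 bar for each library (replicate 1 blue, replicate 2 orange). The 3′ UTR bars are the highest in both panels, at 37.9 and 48.5 ends per Mb, and the intron bars the lowest, at 7.02 and 7.90.

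The 5′ ends of the models often met the annotated 3′ ends of the opposite gene's transcripts. In replicate 1 437 models (8.30%) began within 50 bases of the 3′ end of a transcript of the opposite gene, and they held 22.8% of antisense reads. In replicate 2 507 models (8.39%) did, with 21.6% of reads. Counting the outer ends of the gene alone, 199 models in replicate 1 and 225 in replicate 2 began within 50 bases of its 3′ end. Within 50 bases of its 5′ end 8 and 18 began. A model that begins there runs away from the gene and barely overlaps it, so these counts are no comparison. The model opposite Klhl31 in replicate 1 was one of those at the 3′ end, as its first base was the last base of that gene.

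At many of the 3′ ends the next genomic bases were a stretch of A. No genome sequence was used here, so this could be read only where the end and its neighbourhood lay within an annotated exon, which held for 990 models in replicate 1 (18.8%) and 1250 in replicate 2 (20.7%), with 35.5% and 43.0% of the antisense reads. A statement on all loci is therefore not possible. Of the models with sequence, 60.5% in replicate 1 (57.4 to 63.6) and 57.9% in replicate 2 (55.1 to 60.7) had at least 12 A among the 20 bases after the end. The middle of these models could be read in 915 of the 990 and 1150 of the 1250. There the share was 4.81% (3.52 to 6.40) and 4.52% (3.40 to 5.89). In a model of 1 base the middle is the 3′ end itself. Most of the models with sequence, 751 in replicate 1 and 951 in replicate 2, ended in a 3′ UTR, and 61.7% and 59.6% of these ends were A-rich. In coding sequence 9 of 60 ends in replicate 1 and 17 of 85 in replicate 2 were A-rich. T-rich stretches by the same count followed 1.82% of the ends in replicate 1 and 2.24% in replicate 2.

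The share depended on whether the end sat on an annotated exon boundary. Among ends away from such boundaries, 78.4% in replicate 1 (75.2 to 81.4) and 75.6% in replicate 2 (72.6 to 78.4) were followed by at least 12 A. Among ends within 1 base of a boundary the shares were 11.99% and 13.7%. Incomplete matches to known transcripts, sense models that hold part of a known transcript, had an A-rich stretch after 8.87% of their ends in replicate 1 and 8.65% in replicate 2, under the same requirement for sequence. Whether the A-rich stretches had a part in where these reads arose was not tested.

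**Figure D3:**
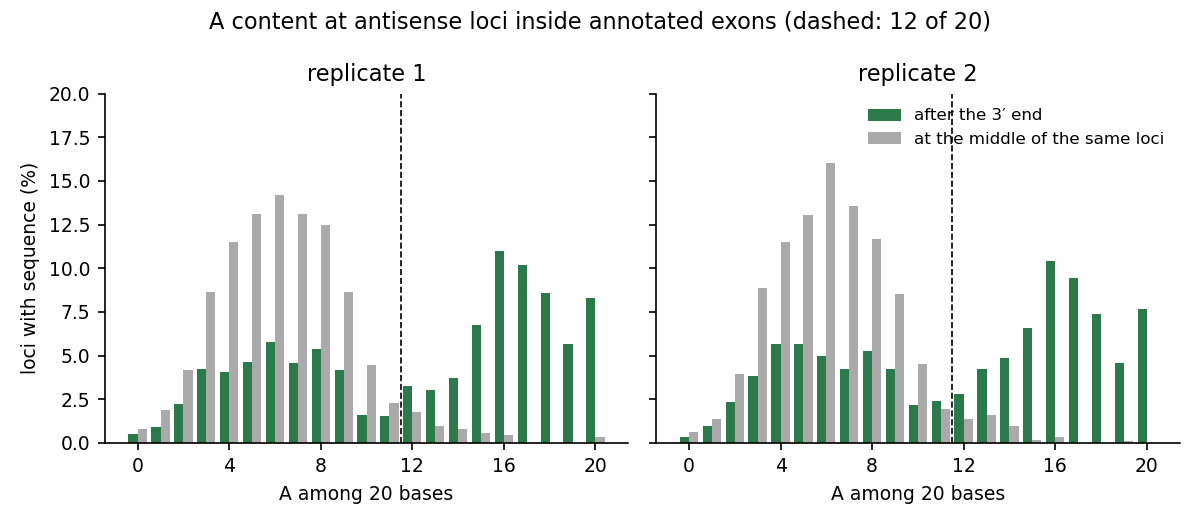
Percent of models with sequence (y axis) by the number of A among 20 bases (x axis), after the 3′ end of single-exon antisense models (green) and at the middle of those of them that had sequence there (grey), for replicate 1 (left) and replicate 2 (right). The dashed line marks 12 A: 60.5% and 57.9% of the 3′ ends lie to its right, and 4.81% and 4.52% of the middles.

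A poly(A) signal was uncommon before the antisense ends. AATAAA or ATTAAA, searched on the strand of the locus alone, stood in the last 50 bases of 11.8% of the models with sequence in replicate 1 (9.87 to 13.99) and 12.9% in replicate 2 (11.1 to 14.9). At the middle of those of these models that had sequence there, the motif stood in windows of the same length in 7.87% and 10.3%. Among the incomplete matches to known transcripts it preceded 66.8% of ends in replicate 1 (65.3 to 68.2) and 65.8% in replicate 2 (64.6 to 67.0). Single-exon models of the class Genomic, which do not follow annotated splice sites, had it before 59.0% and 57.0% of their ends.

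The most read locus lay opposite Gm26917, an annotated lincRNA (ENSMUSG00000097971.3, chr17:39843013-39846245, minus strand, 3233 bases). Replicate 1 had 1004 reads there and replicate 2 had 1104, a mean of 2043 ± 411 CPM (SD, n = 2). The lincRNA itself had 8 and 9 reads. The locus starts 108 bases after the end of CT010467.1, a gene with the biotype rRNA on the same strand. Scaled to annotated nuclear genes, its level differed between the libraries beyond counting error but by only 1.33-fold (exact binomial test, adjusted p = 2.63e-08). The size depended on the total used: the log2 ratio of replicate 1 over replicate 2 was 0.413 with that total and 0.149 with spike-in totals.

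Several of the next most read loci lay within 3′ UTRs, and they had more reads than the gene across from them. The locus in the 3′ UTR of Klhl31, a kelch protein of striated muscle (ENSMUSG00000044938.8, chr9:77656672-77660127, minus strand), had 207 reads in replicate 1 and 333 in replicate 2, or 505 ± 33.6 CPM (SD, n = 2). Klhl31 had 11 sense reads in each library. Its antisense 3′ ends lay 5 bases apart in the 2 libraries, before the same stretch of A.

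The locus opposite Tmem250-ps, a lincRNA in the annotation (ENSMUSG00000087679.2, chr2:26136814-26138383, plus strand), had 187 reads in replicate 1 and 279 in replicate 2, against 1 and 5 sense reads. Its start and end were the same in both libraries. The locus in the 3′ UTR of Nfia, a transcription factor (chr4:98111218-98112813, minus strand), had 73 and 148 reads, against 8 and 14 sense reads. The locus in the 3′ UTR of Msrb3, a methionine sulfoxide reductase (chr10:120782353-120783314, plus strand), had 73 and 111 reads, against 41 and 51 sense reads. Its 3′ ends lay 22 bases apart, before the A stretch in replicate 2 and upstream of it in replicate 1, as the 2 Msrb3 sequences show. The locus in the 3′ UTR of Sept2, a septin (chr1:93507713-93509733, minus strand), had 71 and 100 reads. The annotation lists Sept2 under 2 overlapping entries, so no sense level is given for it. The locus mostly in the 3′ UTR of Cdv3 had 100 and 142 reads, and the locus in the exon of the lincRNA 2900097C17Rik had 91 and 138 reads. None of these loci differed in level between the libraries by more than 1.39-fold, and none passed the test.

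Other highly read loci lay elsewhere in the gene. The locus opposite the 5′ UTR of Dhrs3, a retinal reductase (chr4:144893077-144893582, minus strand), had 116 reads in replicate 1 and 134 in replicate 2. The locus opposite Tnnt2, which encodes cardiac troponin T of the sarcomere (chr1:135849741-135850379, minus strand, 639 bases), had 113 and 112 reads, against 148 and 267 sense reads. Less than 50% of the Tnnt2 locus overlapped exons, and its start and end were identical in both libraries. Its level was 1.48-fold higher in replicate 1, which did not pass the test (adjusted p = 0.211, exact binomial test). No other gene of the sarcomere list had more than 13 antisense reads in a library.

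Among the loci with enough reads to be tested, most had similar levels in the 2 libraries. Reads were tested feature by feature (exact binomial, two-sided) against the split that the totals of annotated nuclear genes give, with Benjamini-Hochberg adjustment over all 8441 genes and loci with at least 10 summed reads. It covers counting error only and compares these 2 libraries, not mice. Of 276 antisense loci tested, 8 were called at an adjusted p under 0.05 and at least 2-fold, 5 higher in replicate 1 and 3 higher in replicate 2. That is 2.90% of the loci, beside 0.462% of all features, 0.322% of annotated genes and 6.33% of the other unannotated loci. At an unadjusted p under 0.05 there were 22 antisense loci (7.97%), beside 7.23% of all features. The 276 loci held 46.9% of the antisense reads, and 84.1% of them were within 2-fold. Their log2 ratios had a median of 0.02 and, with signs dropped, a median of 0.41, beside 0.31 over all features tested. Across the 276 tested loci, of which 267 were read in both libraries, the correlation of log2 reads was 0.70 (Pearson). That of read ranks was 0.62 (Spearman). Both are given as a description over loci that share both libraries.

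**Figure D4:**
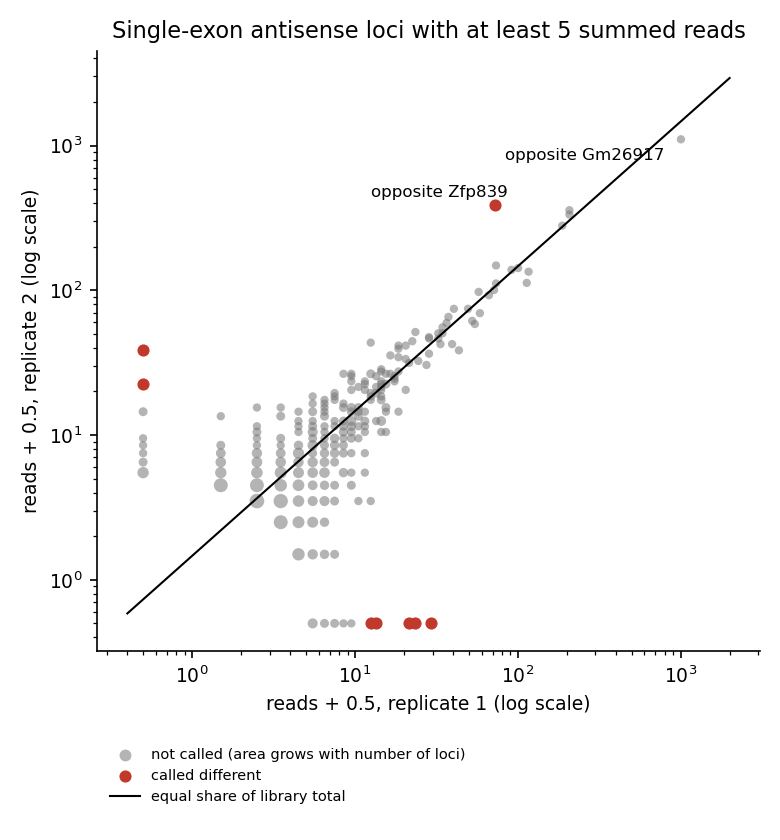
Reads plus 0.5 of each single-exon antisense locus with at least 5 summed reads, replicate 1 on the x axis and replicate 2 on the y axis, both on log scales, with called loci in red and the others in grey (larger points hold more loci). Most loci follow the line of equal library share; 7 of the 8 called loci lie at 0.5 on one axis because the other library lists no model there, and the locus opposite Zfp839 has 72 and 386 reads.

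Every called locus stopped differing at that threshold once nearby reads on the same strand were counted with it. Of the 8 loci 7 were listed in 1 library alone. With the reads of all same-strand models that overlap the locus or lie within 100 bases added, an alternative chosen after the data were seen, 0 of 276 loci were called. The smallest unadjusted exact binomial p-value among the 8 was then 0.0118, opposite Satb1.

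The locus opposite an intron of Zfp839, a zinc finger gene (chr12:110858069-110858565, minus strand), had 72 reads in replicate 1 and 386 in replicate 2, 3.66-fold higher in replicate 2 (adjusted p = 9.62e-28, exact binomial test). It adjoins Mpc1-ps, an annotated processed pseudogene of the mitochondrial pyruvate carrier subunit Mpc1, on the same strand. Mpc1-ps had 155 reads in replicate 1 and none listed in replicate 2. Together they had 227 and 386 reads, a ratio of 0.861 for replicate 1 over replicate 2.

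At other called loci the other library had its reads at adjoining coordinates. In the 3′ UTR of Furin, a protease that processes precursor proteins, replicate 1 had 23 reads at a model of 1 base (chr7:80389586-80389586, plus strand). Replicate 2 had 38 reads at the next base. These were counted as 2 loci, and each was called. Together they gave a ratio of 0.886 for replicate 1 over replicate 2. Opposite Rgs5, a regulator of G protein signalling, replicate 1 had 8 reads at 1 base. Replicate 2 had 22 reads in a model of 915 bases whose 3′ end lay at the adjoining base. Opposite coding sequence of Phyhip, replicate 2 had 14 reads at 1 base, and replicate 1 had 10 in an overlapping model of the class Genomic. The Phyhip locus did not pass the test (adjusted p = 0.120, exact binomial test).

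Some called loci were given another class in the other library. Opposite Gm10874, a lincRNA, replicate 1 had 29 reads in an antisense model of 989 bases, while replicate 2 had 45 reads in an overlapping model called intergenic. Opposite Satb1, which organises chromatin, replicate 1 had 21 reads in an antisense model of 549 bases, and replicate 2 had 11 reads in an overlapping model of the class Genomic and 1 in a spliced antisense model. With these added the ratio was 2.56 for replicate 1 over replicate 2. Opposite Atcayos, itself an annotated antisense gene, replicate 1 had 12 reads, and replicate 2 had 21 reads over the same stretch in a model given to Nmrk2, a muscle kinase of NAD synthesis.

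The longest loci with at least 5 summed reads had few reads. The longest, opposite Nfyc, a subunit of the transcription factor NF-Y (chr4:120803711-120815103, plus strand), spanned 11393 bases with 9 reads in replicate 1 and 4 in replicate 2. That opposite Gpcpd1 spanned 8675 bases with 8 reads in each library. That opposite Ptpn11, the phosphatase SHP2, spanned 8131 bases with 5 and 4 reads, and its replicate 1 model alone covered that whole length. The loci opposite Nfyc and Gpcpd1 were each joined from several shorter models. The shortest were 1 base long, opposite the 3′ UTRs of Rgs5, of Gja1, which encodes connexin 43, and of Ctnna3, a catenin of the intercalated disc. The Ctnna3 locus was placed on the same base by both libraries, with 5 and 6 reads, while Ctnna3 itself had 2 sense reads in replicate 1 and 0 in replicate 2.

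Genes across from the loci were long and read at ordinary levels. In replicate 1 3554 annotated nuclear genes had an antisense locus, with a median sense level of 18.6 CPM, beside 16.3 CPM for all genes read. In replicate 2 3853 genes had one, at 15.9 CPM beside 14.3 CPM. The median length of the protein-coding genes among them was 52076 bases in replicate 1 and 50637 in replicate 2, against 24242 and 24414 for all protein-coding genes read. Among the opposite genes that had sense reads, sense and antisense reads were nearly unrelated. Spearman's rho was 0.0889 over 3068 genes in replicate 1 and 0.0726 over 3394 in replicate 2, as a description. Genes with no antisense read are not in these correlations. Over all protein-coding genes, loci per Mb rose with sense reads, as given next. No sense read was found for 13.7% of the opposite genes in replicate 1 and 11.9% in replicate 2. Antisense reads exceeded sense reads at 758 and 755 genes.

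Sorted by their sense reads, protein-coding genes with more sense reads had more loci per Mb but far fewer antisense reads for each sense read. Sense reads both set these classes and divide that ratio, so part of its fall follows from the grouping. Genes with 1 to 9 summed sense reads had 7.10 loci per Mb of gene and 27.6 antisense reads per 100 sense reads. Genes with 10 to 99 sense reads had 14.7 loci per Mb and 5.92 antisense reads per 100. Genes with at least 100 but under 1000 had 22.6 loci per Mb and 1.10 antisense reads per 100. Genes with 1000 or more had 39.1 loci per Mb and 0.0668 antisense reads per 100 sense reads. The 9317 protein-coding genes with no sense read had 1.04 loci per Mb.

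**Figure D5:**
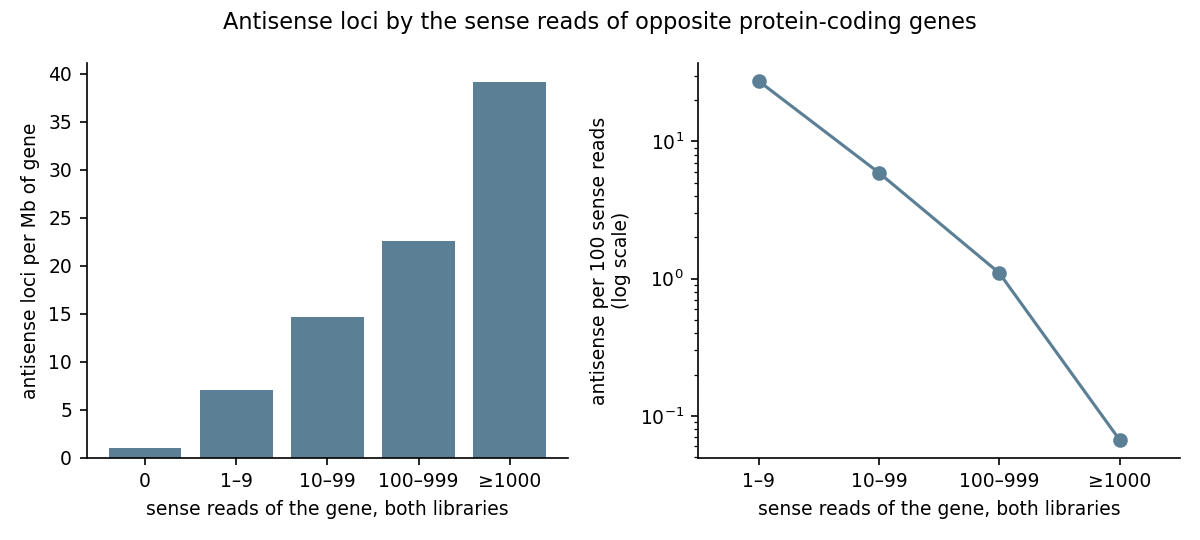
Protein-coding genes grouped by their sense reads summed over both libraries (x axis), with antisense loci per Mb of gene on the left and antisense reads per 100 sense reads, on a log scale, on the right. Sense reads set the groups and also divide the ratio on the right. Loci per Mb are 1.04 for genes with no sense read and 39.1 for genes with 1000 or more, while antisense reads per 100 sense reads are 27.6 for genes with 1 to 9 and 0.0668 for genes with 1000 or more.

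Longer genes more often had a locus but, within each class of genes with sense reads, held fewer loci per Mb. Over all protein-coding genes loci per Mb were 10.5 up to 10 kb and 13.8 from 10 to 30 kb. They were 11.9 from 30 to 100 kb and 5.32 over 100 kb. Among genes with 10 to 99 sense reads, 11.1% of those up to 10 kb long had a locus (9.55 to 12.9) and 78.0% of those over 100 kb did (74.9 to 80.9). Among genes with at least 100 but under 1000 sense reads the shares were 15.3% (12.1 to 19.0) and 84.3% (76.6 to 90.3). Genes up to 10 kb held 21.6 loci per Mb in the lower of these sense classes and 34.4 in the higher, and genes over 100 kb held 10.7 and 16.6. The most loci lay opposite Ryr2, the calcium release channel of the sarcoplasmic reticulum, which had 20 loci with 55 reads in replicate 1 and 61 in replicate 2, beside 50 and 80 sense reads. Dmd, which encodes dystrophin, had 19 loci with 18 and 19 reads, beside 1 and 5 sense reads. Cacna1c, the pore of the L-type calcium channel, had 14 loci. Zbtb20, a transcription repressor, and Pde4d, a cAMP phosphodiesterase, had 13 each. Ablim1, an actin-binding LIM protein, and Slc8a1, of the calcium handling list, tied with them.

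Lists of heart genes are given by their counts, beside all protein-coding genes read. Over all 12621 protein-coding genes read, 36.1% had a locus, and there were 2.27 antisense reads per 100 sense reads in replicate 1 and 2.08 in replicate 2. The median number of antisense reads per gene, summed over both libraries, was 0 over all these genes, 0 for oxidative phosphorylation, 1.5 for fatty acid genes, 2 for the sarcomere, 3 for transcription factors and 4.5 for calcium handling. Nuclear genes of oxidative phosphorylation, among the most read in the heart, had a locus at 9 of 20 members and 0.0412 antisense reads per 100 sense reads in replicate 1 and 0.0366 in replicate 2. Uqcrc1, a core subunit of complex III, had the most, with 5 reads in each library beside 2222 and 3258 sense reads. Uqcrfs1, the Rieske subunit of the same complex, and Sdhb of complex II had 2 reads each in both libraries. Genes of fatty acid uptake and oxidation had a locus at 10 of 18 members and 0.260 and 0.191 antisense reads per 100. Cd36, the fatty acid transporter, had 9 and 16 reads, and Hadhb, of the trifunctional protein, 10 and 11.

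Sarcomere genes had a locus at 14 of 24 members, with 0.454 antisense reads per 100 sense reads in replicate 1 and 0.319 in replicate 2. Tnnt2 held 115 of the 160 antisense reads of this list in replicate 1 and 112 of 152 in replicate 2. Ttn, which encodes titin, had 12 and 13 reads beside 55 and 105 sense reads. Myh6, the alpha myosin heavy chain, named here after its values were seen as the nuclear gene with the most sense reads, had 0 and 3 antisense reads beside 15700 and 17418 sense reads.

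Calcium handling and channel genes had a locus at 13 of 18 members, with 1.05 antisense reads per 100 sense reads in replicate 1 and 0.948 in replicate 2. Ryr2 led this list, followed by Trdn, which encodes triadin, with 13 and 20 reads beside 237 and 360 sense reads. Pln, which encodes phospholamban and is named after its values were seen, had no antisense read beside 2822 and 4572 sense reads. Cardiac transcription factors had a locus at 12 of 20 members, with 6.83 and 6.06 antisense reads per 100 sense reads. Myocd, the coactivator myocardin, had 7 and 20 antisense reads beside 5 and 11 sense reads, and Esrrg, an oestrogen-related receptor, had 12 and 8 beside 12 and 25. These lists differ in gene length and in sense level, both of which moved with the number of loci, and their part in the differences between lists was not tested.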

How the data were processed

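Long-read RNA libraries of mouse heart were analysed from tables deposited by the authors, which give counts of reads per transcript model (whole numbers, not normalized, 1 table per library), and from annotation files naming TALON as the source of unannotated models, per the file headers. The build is mm10 and the annotation GENCODE M21, per the deposited text files. The aligner, the rule for strand and the program versions are not given in the sources used here. Depth was 454069 reads in replicate 1 and 661958 in replicate 2. A count of 0 allows up to 3 reads, 6.97 and 4.76 CPM.

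Each model's coordinates were joined to its count, and loci were joined over libraries at an overlap of at least 1 base on the same strand. The opposite gene was the one named in the annotation files where it is annotated and overlaps, otherwise the annotated gene with the largest overlap on the other strand. A model was placed by the part of that gene covering most of it. CPM used the total of annotated nuclear genes, 430251 and 629896 reads. Log2 ratios are replicate 1 over replicate 2 with 0.5 reads added. Shares have exact Clopper-Pearson 95% intervals, which cover counting error only, since reads of 1 molecule cannot be told apart. Sequence came from exons of GENCODE M21 transcripts that hold the whole window. Python 3.11.15, numpy 2.4.6, pandas 2.3.3, scipy 1.17.1 and matplotlib 3.10.9 were used.

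Named loci were the 12 most read in both libraries, the 4 most read in each library alone, up to 8 called loci, and the 3 longest and 3 shortest with at least 5 reads. Some loci that this rule picks are not reported here. Named genes were the 5 with most loci, the 5 with most antisense reads and the 2 leading members of each list. Members and gene lists were chosen with earlier results of these data known. Alternatives varied denominators, read minimums, overlap, filters, thresholds and windows, and left out each library.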

Additional observations from a re-analysis of the deposited data

How the results depend on the processing

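The share of mouse reads in the loci (2.49%) was 1.70% with models of at least 2 reads and 2.29% without the locus opposite Gm26917, and 2.36 to 2.61% with 1 library left out. The matched share (34.04%) was 21.6% when the overlap had to cover 50% of both models, 28.0% by 3′ ends within 100 bases and 66.2% for models with at least 2 reads, and 31.9 to 36.2% in single libraries. Overlap with an exon (50.1%) was 24.2% when 50% of the model had to be exonic, 49.1% for protein-coding opposite genes and 70.0% by reads, and 49.98 to 50.25% in single libraries. A-rich bases after the end (59.2%) were 63.1% at 10 A, 48.3% at 15 A, 51.2% for a run of 6 A, 62.6% with at least 2 reads and 77.0% away from exon boundaries, and 57.9 to 60.5% in single libraries. A poly(A) signal (12.3%) was 7.93% for AATAAA alone, 10.3% in 40 bases and 9.94% with at least 2 reads, and 11.8 to 12.9% in single libraries. The median level of opposite genes (17.2 CPM) was 23.1 CPM with at least 2 reads and 20.0 CPM for protein-coding genes, and 15.9 to 18.6 CPM in single libraries. The count of called loci (8) was 51 when loci were joined only at 50% of both models and 0 with same-strand reads within 100 bases added, which counts the reads of adjoining models, annotated genes included, at the same 276 loci. It was 11 with spike-in totals and 6 to 9 with other read minimums. With nearby reads added, the log2 ratio reversed to -0.16 at the replicate 1 locus opposite Furin and to -0.044 opposite Atcayos. Alternatives for the exon boundaries, the Gm26917 locus, short models and nearby reads were chosen after seeing the data. No paired analysis was possible because the study has 1 group. Depth limits what can be said of the loci with 1 read: a locus absent from a library may lie below its floor.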

Other observations

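Annotated antisense genes gave fewer reads than the unannotated single-exon loci. Of 2959 genes with the biotype antisense in GENCODE M21, 468 were read, with 850 reads in replicate 1 (0.190% of mouse reads) and 1258 in replicate 2 (0.192%). Of the 16 annotated members of a list of known antisense and divergent RNAs, 5 were read. Hand2os1, transcribed divergently from the transcription factor gene Hand2, had 49 reads in replicate 1 and 74 in replicate 2. Mhrt had 29 and 32 reads. Airn, an imprinted antisense RNA, and Bdnf, a protein-coding gene that the list holds, had 1 opposite locus each, with at most 1 read in a library.

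By strand, the single-exon antisense models divided into 2669 on the plus strand and 2595 on the minus strand in replicate 1, and 3011 and 3035 in replicate 2. An annotated gene ended within 5 kb upstream on the same strand of 8.36% of models in replicate 1 and 8.50% in replicate 2. These models held 18.5% and 17.9% of the antisense reads, which include the locus opposite Gm26917.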
